A study of Oryza sativa with 6 samples.

Results

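RAB21, RAB16B, LEA19, Osem and salT are rice genes for proteins that accumulate in drying or salt-stressed tissue, and they are described here in flag leaves, the leaves next below the panicle. They are 5 of 17905 genes measured on the Affymetrix Rice Genome Array, a microarray that carries sets of short probes for rice transcripts. They were selected on their higher level in mutant than in wild type leaves in these same 6 arrays, so their differences are given as a description and without a test. A gene was found by its symbol or synonym in the RefSeq gene table, and where it had several probe sets the one with the highest mean over the 6 arrays was used. The mutant group consisted of 3 arrays of untreated plants with a T-DNA insertion in OsSLAC7 in the japonica cultivar Zhonghua11. The wild type group consisted of 3 arrays of untreated Zhonghua11. Both genotypes were raised in a greenhouse and then moved to the field. The age of the plants, the number of plants behind an array and the number of insertion lines were not given in the sources used here. The replicates are called biological in the labels without further detail, so a p-value here reflects only how far these samples scatter, which may be technical. No entry of the gene table carried the name of OsSLAC7 or its locus, so the disrupted gene was not analysed here and does not serve as a check of the labels.

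Dehydrins are hydrophilic, largely unfolded proteins with a conserved lysine-rich segment, and they form one group of the late embryogenesis abundant (LEA) proteins. LEA proteins accumulate in ripening seeds, and in leaves after water loss, and are held to protect membranes and other proteins in drying cells. The plant hormone abscisic acid induces many of their genes: it binds PYL receptors, these block phosphatases of the PP2C group, and the SAPK kinases so released activate bZIP factors that bind the promoters. RAB21, also known as rab16A, and RAB16B encode dehydrins, LEA19 a LEA protein of group 3 and Osem the rice Em protein, a LEA protein of group 1. The product of salT is neither a dehydrin nor a LEA protein but a mannose-binding lectin of the jacalin type, first described in salt-treated rice, so the label of a LEA family holds for 4 of the 5 genes.

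Array medians over all probe sets lay between 4.58 and 4.72 on the log2 scale, with mutant replicate 1 lowest. Over the genes measured, the medians were 7.40 to 7.60 on mutant arrays, with replicate 1 highest, and 7.21 to 7.29 on wild type arrays. Pearson correlations across probe sets were 0.992 to 0.996 within groups and 0.982 to 0.991 between groups, and mutant replicate 1 had the lowest values of both kinds. By limma, a linear model with moderated variances, 21.0% of all genes passed an adjusted p of 0.05 as higher in mutant leaves and 6.32% as lower. The median difference of all genes, mutant minus wild type, was 0.10 on the log2 scale. In bulk leaf tissue a change in the number of cells that express a gene and a change in transcript per cell cannot be told apart. With 3 arrays a group, precision is set by their number.

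Among the dehydrins, RAB21 (LOC4350454, chromosome 11) had levels of 9.93, 10.24 and 9.89 (log2) on the 3 mutant arrays, against 7.15, 7.17 and 7.08 on the wild type arrays. Every mutant value lay at least 2.72 above every wild type value. The means were 10.02 ± 0.19 in mutant and 7.13 ± 0.04 in wild type leaves (SD, n = 3 each), a difference of 2.89 (SE 0.11), or 7.40-fold. In order of size this difference was number 16 of 17905. The second probe set of RAB21, of the _s_at type that can bind transcripts of more than 1 gene, read 8.49, 8.29 and 8.36 in mutant leaves, against 5.40, 5.69 and 5.41 in wild type leaves, a difference of 2.88. Both probe sets thus gave nearly the same difference, although mutant replicate 2 was highest on the first and lowest on the second.

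RAB16B (LOC4350453), the dehydrin gene next to RAB21 on the chromosome, read 6.81, 6.22 and 6.24 in mutant leaves, against 4.18, 4.18 and 4.27 in wild type leaves. The groups did not overlap, and mutant replicate 1 stood above the other mutant arrays by more than the spread of the wild type arrays. The mean was 6.42 ± 0.33 in mutant and 4.21 ± 0.05 in wild type leaves (SD, n = 3 each), a difference of 2.21 (SE 0.20). Without mutant replicate 1 the difference was 2.02. All 3 wild type values lay below the median of their array, where RMA values respond little to transcript level, so the wild type level of RAB16B is poorly resolved and no fold is given.

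LEA19 on chromosome 5, also known as OsLEA3-1, read 7.51, 7.44 and 7.31 in mutant leaves, against 4.92, 5.04 and 4.93 in wild type leaves. Its difference had the smallest error of the 5 genes, with a mean of 7.42 ± 0.10 in mutant and 4.96 ± 0.07 in wild type leaves (SD, n = 3 each). The difference was 2.46 (SE 0.07), or 5.50-fold, and number 27 of all genes in order of size. The wild type values of LEA19 averaged only 0.27 above the array medians, near the dim range where RMA values respond little, so the fold is uncertain. The only probe set of LEA19 is also of the _s_at type. The related group 3 gene OsLEA3-2 had no probe set tied to it and was not analysed here.

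Osem (LOC4338499, chromosome 5) read 6.36, 6.54 and 6.19 in mutant leaves, against 5.09, 4.92 and 4.86 in wild type leaves. Its groups were separated by 1.09, a smaller gap than in the dehydrins and LEA19. The mean was 6.36 ± 0.18 in mutant and 4.96 ± 0.12 in wild type leaves (SD, n = 3 each), a difference of 1.40 (SE 0.12), or 2.65-fold. This fold is uncertain too, since the wild type values of Osem averaged only 0.27 above the array medians. In rice protoplasts the Osem promoter is known as a target of the seed regulator VP1 together with the bZIP factor TRAB1.

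The lectin gene salT (LOC4326471, chromosome 1) read 8.05, 7.87 and 7.55 in mutant leaves, against 6.12, 6.47 and 6.41 in wild type leaves. The groups did not overlap, and both were spread more widely than those of LEA19. The mean was 7.82 ± 0.26 in mutant and 6.33 ± 0.19 in wild type leaves (SD, n = 3 each), a difference of 1.49 (SE 0.18), or 2.81-fold. A second probe set, of the _x_at type, read 7.12, 7.08 and 6.52 in mutant leaves, against 5.02, 4.87 and 5.19 in wild type leaves. Its difference of 1.88 was larger than that of the first, and probes of this type can bind related sequences.

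**Figure D1:**
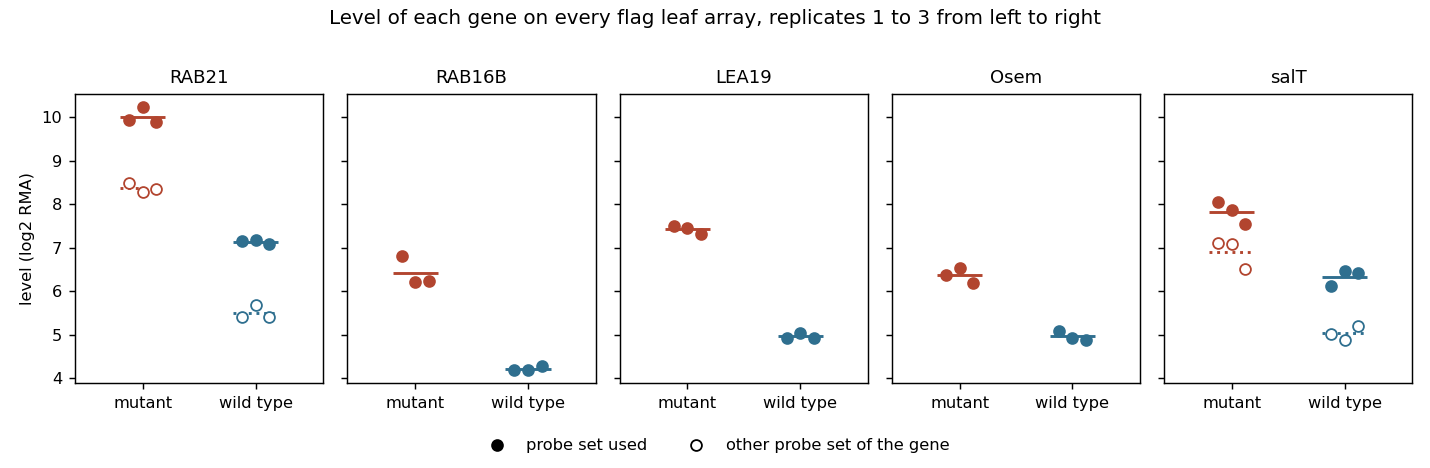
Level (log2 RMA, vertical axis) of each of the 5 genes on the 3 mutant and 3 wild type arrays, with filled points for the probe set used, open points for the second probe set of RAB21 and salT, and bars for group means. In each of the 7 probe sets all mutant points lie above all wild type points.

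In all 5 genes, and in all 7 of their probe sets, every mutant array stood above every wild type array. Of all genes, 32.2% were separated in this direction, and nothing is read from the count of members, since it rests on the comparison that chose them. Within the mutant group replicate 3 was lowest in RAB21, LEA19, Osem and salT, and replicate 2 was lowest in RAB16B by 0.03. The difference of each gene kept its sign under every other scaling, probe set rule and omission of an array that was tried. Omission of an array could not reverse a sign, since the groups did not overlap, so these settings describe only the size of each difference. Over them the difference ran from 2.67 to 2.95 in RAB21, 1.999 to 2.32 in RAB16B, 2.24 to 2.52 in LEA19, 1.19 to 1.49 in Osem and 1.28 to 1.68 in salT.

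**Figure D2:**
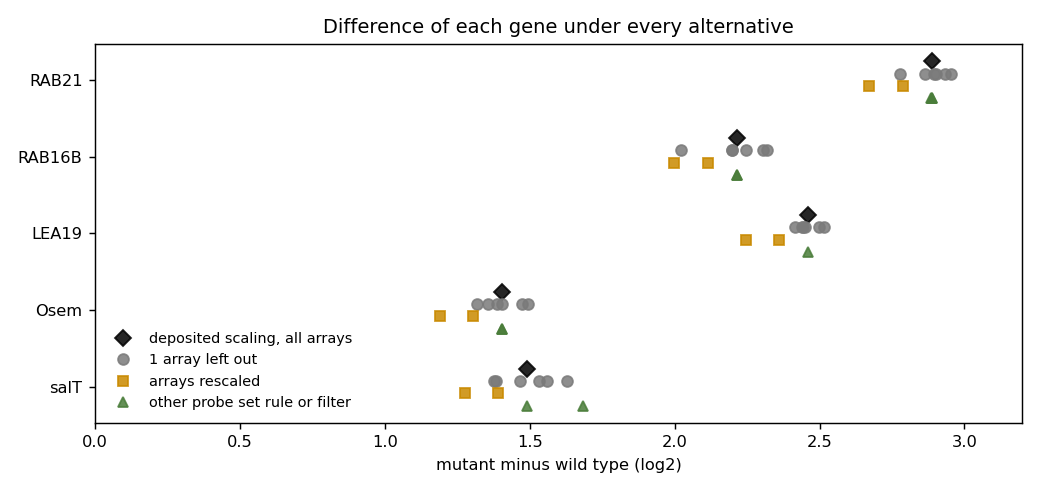
Difference between mutant and wild type leaves (log2, horizontal axis) of each gene with the deposited scaling (diamonds), with 1 array left out (circles), with rescaled arrays (squares) and with other probe set rules or the filter (triangles). Rescaling gives the lowest value of each gene, 2.67 in RAB21 and 1.19 in Osem, and no value falls below 1.

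RAB16B and RAB21 belong to a row of 4 RAB16 genes on chromosome 11, in the order RAB16D, RAB16C, RAB16B and RAB21 in the RefSeq assembly ASM3414082v1, with a long non-coding RNA gene and a pseudogene between RAB16C and RAB16B. The other 2 dehydrin genes of this row did not share the sizes of difference of RAB16B and RAB21. RAB16C read 8.13, 8.38 and 7.97 in mutant leaves, against 7.39, 7.57 and 7.53 in wild type leaves, and rose by 0.66 (SE 0.12, limma adjusted p = 0.00607). RAB16D read 5.41, 5.97 and 5.68 in mutant leaves, against 5.89, 5.81 and 6.24 in wild type leaves. Its groups overlapped, and its difference of -0.30 (SE 0.16) did not pass (limma adjusted p = 0.216). Each of RAB16B, RAB16C and RAB16D had 1 probe set, none of the _s_at or _x_at type. The RAB16 genes are similar in sequence, and how far each probe set binds the transcripts of its neighbours was not tested.

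**Figure D3:**
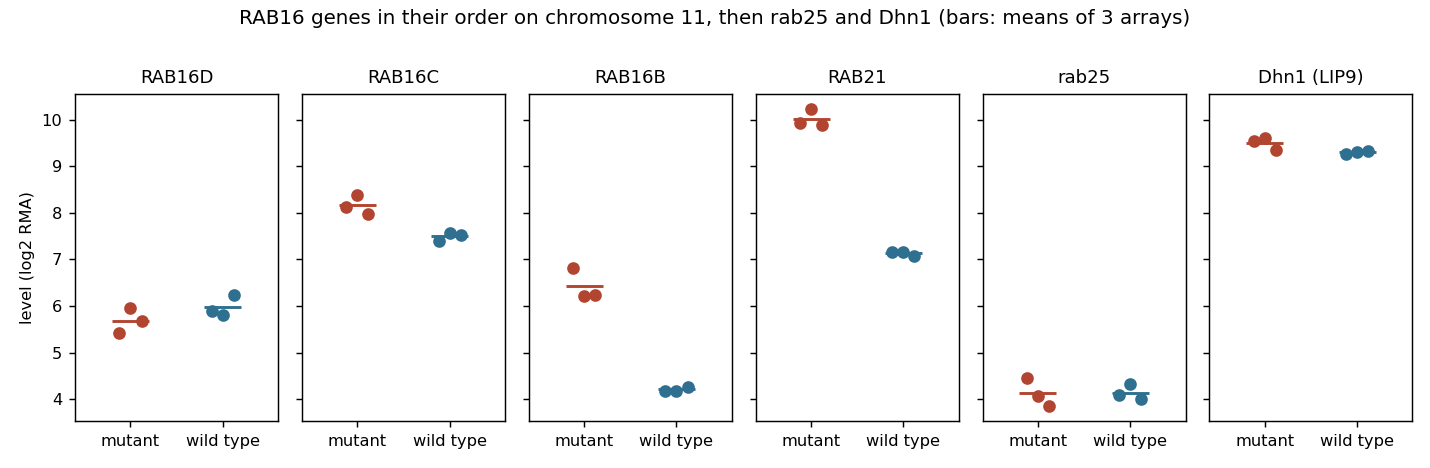
Level (log2 RMA, vertical axis) on the 3 mutant and 3 wild type arrays of the RAB16 genes in their order on chromosome 11, and of the dehydrin genes rab25 and Dhn1, with bars for group means. The difference between the group means is 2.89 in RAB21 and 2.21 in RAB16B, while the points overlap in RAB16D and rab25. All points of rab25 lie below the array medians, where RMA values respond little.

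Of 6 other measured genes listed as dehydrins, LEA or low-temperature induced proteins, 3 rose and none fell, beside 21.0% and 6.32% of all genes, with a median difference of 0.27 beside 0.10 over all genes. At an unadjusted p under 0.05 there were 4, the gene added being OsDhn1, as higher. The share of all genes at this threshold was not counted. Besides RAB16C, LTI6B rose by 0.74 (SE 0.07, limma adjusted p = 0.000398) and LTI6A by 0.32 (SE 0.09, limma adjusted p = 0.0358). These encode small membrane proteins induced by cold and are not LEA proteins. LTI6B read 12.06, 12.01 and 12.09 in mutant leaves, against 11.32, 11.31 and 11.30 in wild type leaves, and its second probe set gave a difference of 0.92. The call of LTI6A was lost under both rescalings of the arrays (adjusted p = 0.490 and 0.128) and in 5 of the 6 fits without 1 array, with adjusted p between 0.0533 without mutant replicate 1 and 0.0997 without wild type replicate 1. Its value without an array stayed between 0.25 without mutant replicate 2 and 0.37 without mutant replicate 3.

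The other 2 dehydrin genes of this list did not pass by limma. OsDhn1, also known as LIP9, an acidic dehydrin, averaged 9.51 ± 0.14 in mutant and 9.30 ± 0.03 in wild type leaves (SD, n = 3 each), a difference of 0.21 (limma adjusted p = 0.117). Its 2 dimmer probe sets gave differences of -0.24 and 0.06, so the sign depended on the probe set, and on the first one it was -0.01 after centring on the gene median. Without mutant replicate 3 the difference of OsDhn1 was 0.29 and passed (limma adjusted p = 0.0483). The gene rab25, which encodes another dehydrin, averaged 4.12 ± 0.30 in mutant and 4.14 ± 0.16 in wild type leaves (SD, n = 3 each), with overlapping groups and a difference of -0.01 (limma adjusted p = 0.953). All its values lay below the array medians, where RMA values respond little, so a change in rab25 could go unseen.

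The genes that make, sense and break down abscisic acid were followed in a list of 23 measured genes, of which 10 rose, 1 fell and 12 did not pass. These shares, 43.5% and 4.35%, stand beside 21.0% and 6.32% over all genes, and the median difference was 0.43. After each array was centred on its gene median, 8 rose and 5 fell, beside 10.1% and 21.98% of all genes. Of the phosphatases, OsSIPP2C1 rose by 0.90 (SE 0.08, limma adjusted p = 0.000436), OsPP2C06 by 0.73 (SE 0.07, limma adjusted p = 0.000425) and OsPP2C30 by 0.73 (SE 0.10, limma adjusted p = 0.00203). Of the SAPK kinases, OsSAPK4 rose by 0.59 (SE 0.07, limma adjusted p = 0.00137). With the deposited scaling OsSAPK7 (by 0.74), OsSAPK10 (by 0.50) and OsSAPK5 (by 0.43) also passed as higher, as did the phosphatase gene OsPP2C09 (by 0.48). OsSAPK1, OsSAPK2, OsSAPK3, OsSAPK6, OsSAPK8, OsSAPK9, the phosphatase genes OsPP2C51 and OsPP2C53 and the receptor gene OsPYL11 did not pass. These further genes were named after their values were seen.

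Both regulators known for the Osem promoter were measured. TRAB1 read 8.94, 8.72 and 8.90 in mutant leaves, against 8.10, 8.32 and 8.32 in wild type leaves, and rose by 0.60 (limma adjusted p = 0.00426). OsVP1 read 2.93, 2.97 and 3.22 in mutant leaves, against 3.28, 3.46 and 3.66 in wild type leaves, all well below the array medians, and fell by 0.43 (limma adjusted p = 0.0388). This call, the only fall of the list, was lost without mutant replicate 1 or 2 and without wild type replicate 2 or 3 (adjusted p between 0.0911 and 0.126). The bZIP factor OsBZIP23, known as an activator of abscisic acid response in rice, rose by 0.56 (limma adjusted p = 0.00393). Among the genes of hormone level, the breakdown enzyme gene OsABA8ox1 was 0.66 higher (limma adjusted p = 0.0801) and the zeaxanthin epoxidase gene OsABA1, of the synthesis pathway, was at -0.21 (limma adjusted p = 0.107), and neither passed. OsABA8ox1 averaged 4.19 in mutant and 3.53 in wild type leaves, below the array medians. The brighter breakdown gene OsABA8ox2 averaged 10.09 in mutant and 10.22 in wild type leaves. Its difference of -0.13 did not pass (limma adjusted p = 0.244). OsNCED3 and OsABA8ox3 were not measured. OsABA8ox1 passed without mutant replicate 2, at 0.86 (limma adjusted p = 0.0455). OsABA1 passed as lower after either rescaling (adjusted p = 0.00838 and 0.0262) and among brighter genes (adjusted p = 0.0472). With an intensity trend in the variance OsABA8ox1 and OsABA1 both passed (adjusted p = 0.0284 for OsABA8ox1 and 0.0239 for OsABA1). The measured genes of this paragraph were named after their values were seen.

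Of 21 measured osmotic stress factors and osmolyte genes, 5 rose, 2 fell and 14 did not pass, with a median difference of -0.01. The shares, 23.8% and 9.52%, were near the 21.0% and 6.32% of all genes. Among the 14 that did not pass, TPP2 LOC4330237 also carries the name TPPII and may be a namesake. OsHox24, a homeodomain-leucine zipper factor induced by drought and abscisic acid, read 7.57, 7.55 and 7.28 in mutant leaves, against 5.35, 5.69 and 5.42 in wild type leaves. It rose by 1.98 (SE 0.12, limma adjusted p = 7.09e-05), and its groups did not overlap. The proline synthesis gene OsP5CS1 rose by 0.41 (SE 0.11, limma adjusted p = 0.0314). The stress factor OsNAC5 fell, with mutant minus wild type at -0.46 (SE 0.08, limma adjusted p = 0.00707), as did the trehalose phosphatase gene OsTPP1 at -0.29 (SE 0.07, limma adjusted p = 0.0215). After centring on the gene median, 1 rose and 6 fell, beside 10.1% and 21.98% of all genes. After a shift by the median deviation, 2 rose and 3 fell, beside 15.1% and 12.1% of all genes. The list had 1 rise and 1 fall without wild type replicate 2, and likewise when wild type replicate 3 was left out. It had 2 of each without mutant replicate 1, and likewise when mutant replicate 3 was left out. Over all genes the shares without 1 of these arrays were 11.9% to 17.4% higher and 3.19% to 5.72% lower. OsTPP1 averaged 3.11 in mutant and 3.39 in wild type leaves, well below the array medians. It did not pass without any 1 of the 3 wild type arrays (adjusted p between 0.0534 and 0.0971) or with an intensity trend in the variance (adjusted p = 0.0895). OsP5CS1 did not pass under either rescaling or when mutant replicate 1 or 3, or else wild type replicate 2 or 3, was left out (adjusted p between 0.0689 and 0.207).

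**Figure D4:**
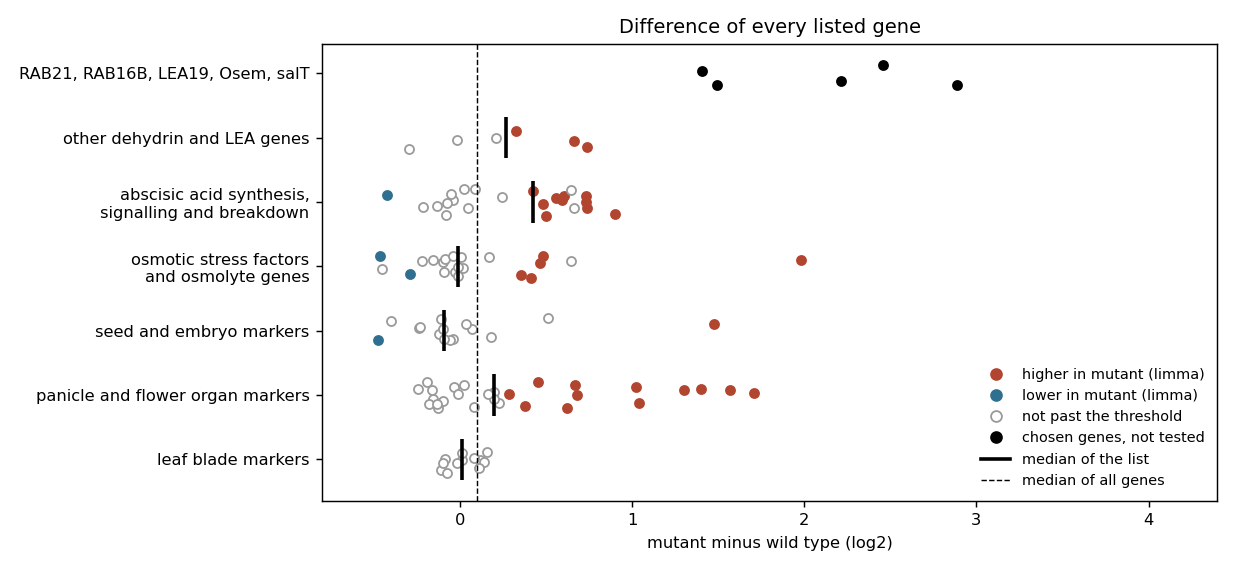
Difference between mutant and wild type leaves (log2, horizontal axis) of the 5 chosen genes (black) and of every measured gene of 6 lists, red where higher and blue where lower by limma and open where not past the threshold, with a bar at each list's median and a dashed line at the median of all genes, 0.10. Among the 3 stress lists 1 gene, OsHox24 at 1.98, lies above the lowest of the 5 chosen genes, at 1.40. In the other lists OsMADS45 (1.71), OsMADS24 (1.57) and OSH1 (1.47) also do. The 5 were chosen for their rise in this comparison, so nothing is read from their place.

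LEA genes are also markers of seed and embryo, so seed genes were read on the same arrays. Of 15 measured seed and embryo markers 1 rose, 1 fell and 13 did not pass, 6.67% each way beside 21.0% and 6.32% of all genes, with a median difference of -0.09. Their summed signal on the linear scale was 1981 to 2116 on mutant arrays and 1979 to 2117 on wild type arrays. GLB1 made up the largest share of this sum, with 1203 to 1256 on mutant and 1149 to 1232 on wild type arrays, and whether this entry is the seed globulin gene is not settled by its name. Without GLB1 the sum was 777 to 860 on mutant and 830.4 to 885 on wild type arrays. Of the glutelins, the main storage proteins of rice endosperm, GLUA-1, GLUA-3, GLUB-4, GLUB-5 and GLUD-1 averaged 3.18 or less in mutant and 3.41 or less in wild type leaves, while GLUA-2 averaged 8.77 in mutant and 9.003 in wild type leaves. Apart from GLUA-2, these glutelins and GLB1 were named after their values were seen. The marker that rose was OSH1, a homeobox gene of embryo and shoot meristem, by 1.47 (SE 0.22, limma adjusted p = 0.00294), and the seed albumin gene RA5 was lower, with mutant minus wild type at -0.47 (SE 0.13, limma adjusted p = 0.0312). The call of RA5 was lost without mutant replicate 1 or 2 and without wild type replicate 2 or 3 (adjusted p between 0.0707 and 0.103).

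Genes that mark the panicle and its flower organs were read in the same way. Of 28 measured, 12 rose, 16 did not pass and none fell, or 42.9% higher beside 21.0% of all genes, and 15 averaged below the array medians. At an unadjusted p under 0.05 there were 13, and the gene added was lower. It was OsCP1 LOC4337353, with mutant minus wild type at -0.25 (limma unadjusted p = 0.0424). The share of all genes at this threshold was not counted. The summed signal of the 28 genes was 11800.4 to 11974 on mutant arrays and 10467 to 11159.7 on wild type arrays. Among the 12 was 1 namesake, OsCP1 LOC4327535, a cystatin gene, which alone had 3025 to 3242 on mutant and 2101 to 2573 on wild type arrays. Its call was lost without wild type replicate 2 or 3 (adjusted p = 0.0528 and 0.0567). Without it the sum was 8732 to 8873 on mutant and 8366 to 8586 on wild type arrays. The brightest genes left in this sum were OsMADS14, OsMADS18 and OsMADS15, and none of them passed by limma. OsMADS14 averaged 11.98 in mutant and 12.08 in wild type leaves, OsMADS18 11.24 and 11.045, and OsMADS15 9.49 and 9.65. The floral MADS-box genes OsMADS45 and OsMADS24 rose by 1.71 (limma adjusted p = 0.000152) and 1.57 (limma adjusted p = 0.000264). OsMADS6 and OsMADS2 rose by 1.04 (limma adjusted p = 0.00193) and 1.02 (limma adjusted p = 0.00160). In wild type leaves OsMADS45 averaged 3.51 and OsMADS24 4.25, below the array medians, and OsMADS6 averaged 4.66, near them. The sizes of these rises are therefore poorly resolved. After centring on the gene median 9 rose and 7 fell, beside 10.1% and 21.98% of all genes. The part of flower tissue or of dividing tissue in the levels of the 5 genes was not tested.

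The labelled tissue carried its markers. Of 12 leaf blade markers none passed by limma in either direction, beside 21.0% higher and 6.32% lower of all genes. None had an unadjusted p under 0.05. With an intensity trend in the variance 3 passed, PSAH and CAB2R as higher and OsrbcS as lower, beside 25.1% higher and 8.11% lower of all genes. After centring on the gene median 4 were lower, beside 21.98% of all genes. OsrbcS was read on a probe set of the _x_at type, with a difference of -0.10. Without _s_at and _x_at probe sets it was lower, at -0.47 (limma adjusted p = 0.00535). With the mean of its probe sets it was at -0.24 (limma adjusted p = 0.0487). The median marker stood between 13.04 and 13.20 on mutant arrays and between 13.02 and 13.11 on wild type arrays, and RBCS1, at 2.54 in mutant and 2.56 in wild type leaves, was the only one below the array medians and is named for that. Their summed signal was 108066 to 113454 on mutant arrays and 108394 to 110655 on wild type arrays.

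Genes with a name were then ranked by how closely their profile over the 6 arrays followed that of each member, as the root mean square distance of log2 values after each gene's own mean was taken off. This ranking includes the comparison that chose the members and is a description. Nearest to RAB21 were the expansin gene EXPB3 (distance 0.13), the chitinase gene chia4a (0.13) and MS (0.18). Nearest to LEA19 were the expansin gene EXP2 (0.10), MS (0.14) and BURP17 (0.15), and nearest to RAB16B were the laccase gene LAC7 (0.15), the expansin gene EXPB4 (0.19) and BURP17 (0.19). Expansins are proteins that loosen cell walls. Nothing is read from their place here, since the distance depends on the size of the difference that chose the members. The share of expansin genes among all named genes was not counted.

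Nearest to Osem were the expansin gene EXP6 (0.10), ERG3 (0.11) and BHLH172 (0.13), and nearest to salT were the floral gene MADS24 (0.07), GLU13 (0.10) and OsC3H37 (0.10). Among the members themselves, RAB16B and LEA19 were closest to each other (distance 0.21), as were Osem and salT (0.21). RAB21 and Osem were farthest apart (0.74), a distance set mainly by the sizes of their differences, 2.89 and 1.40.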

How the data were processed

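The table the authors deposited holds log2 values of 6 arrays. Their making is known only as far as the submitters' processing notes name RMA and affy, and no version was given in the sources used here. RMA equalises intensity distributions between arrays, so differences in total RNA are removed. Scanner files and scan batches were not analysed here. The table held 57381 probe sets, of which 123 controls were left out. By the platform annotation 22436 had 1 gene, 95 several and 34727 none. All 17905 genes matched the RefSeq table. A gene was represented by its brightest single-gene probe set. Mutant and wild type were compared over all genes with limma 3.58.1 in R 4.3.3 (two-sided, no block, Benjamini-Hochberg adjusted p, threshold 0.05), checked on simulated data. The members were not tested. Members, gene lists and tests were chosen with earlier results of these data known. The text names the members, all other dehydrin or LEA genes, up to 4 genes of each other list by adjusted p, and the 3 nearest profiles of each member. Genes named beyond this rule were named after their values were seen (OsVP1, TRAB1, OsBZIP23, OsABA8ox1, OsABA8ox2, OsABA1, OsPYL11, the further PP2C and SAPK genes, TPP2, GLUA-1, GLUA-3, GLUB-4, GLUB-5, GLUD-1, GLB1, OsCP1, OsMADS14, OsMADS15, OsMADS18 and RBCS1). Sums without GLB1 and without OsCP1 were likewise added after seeing the data. List members were matched by name, so a list can miss genes or catch namesakes. A planned search of protein sequences for dehydrin motifs and close relatives was not run. Alternatives were other scalings, probe set rules, variance models, a filter on dim genes, a replicate block and each array left out. Figures were drawn with matplotlib 3.10.9.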

Additional observations from a re-analysis of the deposited data

How the results depend on the processing

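Of the 5 members, centring arrays on the median of their genes, which moved the median of all genes by -0.21, gave 2.67 for RAB21, 2.24 for LEA19 and 1.19 for Osem, each further from the main value than the replicate spread. Shifting arrays by the median deviation of their genes gave 2.36 for LEA19. LEA19 has no value without _s_at and _x_at probe sets, and of the 5 only RAB21 passed the filter on dim genes, at its main value. Over all genes, centring gave 1804 rises and 3935 falls and the median deviation shift 2704 and 2167, against 3752 and 1131 as deposited. Leaving out 1 array gave 2700 (without wild type replicate 3) to 4623 called genes, with 3000 without wild type replicate 2. The shares over all genes were then 11.9% to 20.3% higher and 3.19% to 5.72% lower. They were 10.1% and 21.98% after centring, and 25.1% and 8.11% with an intensity trend. In the brighter part, 29.4% of the genes left were higher and 12.6% lower. The shares were 19.7% and 6.05% without _s_at and _x_at probe sets, and 20.2% and 6.08% with the mean of probe sets. Among osmotic stress genes 3 of the 8 left were called in the brighter part of the genes (2 higher, 1 lower), and 2 to 7 with 1 array left out. Seed and embryo markers had 5 called after centring (1 higher, 4 lower) and 4 with an intensity trend (2 higher, 2 lower). They had 1 higher without _s_at and _x_at probe sets, and 1 lower of the 2 left in the brighter part. With 1 array left out they had 1 to 2 called (1 without mutant replicate 1 or 2 or wild type replicate 2 or 3). Panicle markers had 3 called higher in the brighter part, where 7 were left. Leaf blade markers had 4 called lower after centring, 1 lower with the mean of probe sets and 1 lower without _s_at and _x_at probe sets. With an intensity trend they had 3 called (2 higher, 1 lower). The cause of these shifts was not tested.

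Replicate numbers did not pair the arrays: the correlations of same-numbered deviations were 0.12, 0.12 and -0.02. With a replicate block 4754 genes were called, 20.9% of all genes as higher and 5.65% as lower. Of these, 12 were in the abscisic acid list (11 higher, 1 lower) and 11 in the panicle list, all higher. A further 7 were in the osmotic stress list (4 higher, 3 lower) and 3 in the other dehydrin list, all higher.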
